A study of Mus musculus with 14 samples.

Results

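Potassium channel genes were followed in whole brain of Rik null and wild type (WT) mice at postnatal day 23 (P23). They were all protein-coding genes of the deposited table whose symbol was Kcn, further letters and then a digit, apart from 1 not analysed here, which gave 92 genes in 20 subfamilies of 56748 genes in all. The choice used symbols only, and no measured value. Rik null mice are homozygous for a null allele of 2310061I04Rik, called Rik here, a protein-coding gene without a described function. The allele is a deletion in an intron that arose by chance while a floxed Traf7 line was being made, and it was bred away from that line onto C57BL6/J, the strain given for all animals. It is therefore a single mutational event that the study followed through 1 line. Females gave 4 of the 7 Rik null libraries and 3 of the 7 WT libraries, males the rest, and the study describes its WT animals as littermates. Each library came from 1 sagittal side of a brain kept in RNAlater, so that all brain regions were mixed. By the study's account Rik null mice are runted at this age and die soon after, so that effects of the gene and of illness cannot be told apart here.

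Potassium channels let potassium ions leave or enter cells along their gradient, and so set the resting potential, end action potentials and shape the rate of firing. Voltage-gated (Kv) channels are assembled from pore subunits, alone or with silent and auxiliary subunits that change how fast they open and where they are placed. Other families open with intracellular calcium or sodium, pass current mainly inwards (inward rectifiers), or carry resting current through subunits with tandem pore domains. In glia, inward rectifiers and tandem-pore channels take up potassium released by neurons and hold the membrane potential, and in choroid plexus they take part in ion transport into cerebrospinal fluid.

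The libraries held 14.7 to 17.9 M counts, of which 71164 to 83642 fell on the 92 genes. Levels are given as CPM, the counts of a gene per M counts of the library after TMM scaling. Genotypes were compared by the quasi-likelihood test of edgeR, two-sided, over 16882 tested genes, with p-values adjusted after Benjamini and Hochberg across all of these and a threshold of 0.05, and ± after a fold change gives its standard error (SE). Rik itself, the check of the genotype labels, was at 36.3 CPM in WT and 2.50 CPM in Rik null libraries, and its libraries did not overlap between genotypes (log2 fold change -3.86). Rik null replicate 1 stood apart from the other Rik null libraries on the first principal component (33.0% of the variance), and WT replicate 4 carried pituitary transcripts, with a summed level of the pituitary markers of 411 CPM against a WT median of 10.3 CPM. Defining markers of neurons, astrocytes, oligodendrocytes and microglia were present in all libraries. In Rik null libraries 11 of 12 markers of myelinating oligodendrocytes, 6 of 10 of astrocytes, 6 of 9 of microglia, 5 of 13 of neurons, 4 of 9 of choroid plexus, 5 of 9 of striatal projection neurons and 4 of 8 of Purkinje cells passed the test as lower, beside 17.9% of all tested genes. So did 3 of 7 markers of oligodendrocyte precursors (42.9%), 1 of 7 of parvalbumin interneurons (14.3%) and 1 of 8 of pericytes and smooth muscle (12.5%). None of 8 endothelial and 8 cerebellar granule cell markers was lower, while 2 endothelial, 1 granule cell, 1 neuronal and 1 astrocyte marker were higher, beside 16.5%. In a whole-brain library, fewer cells of a type and less RNA per cell cannot be told apart.

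Of the 92 genes, 79 had enough counts to be tested and 13 did not. In Rik null brain 21 of the 79 were lower, among them the ether-a-go-go related channel Kcnh7, the Kv1 subunit Kcna6, the microglial tandem-pore channel Kcnk13, the glial inward rectifier Kcnj16 and the auxiliary subunits Kcne2 and Kcne1l. Another 6 were higher, among them the axonal Kv1 subunit Kcna1, the inward rectifier Kcnj4 and the auxiliary subunit Kcne4. The other 52 did not pass the threshold. The share called, 34.2%, was close to the 34.4% of all tested genes, and by direction 26.6% of the channel genes were lower against a background of 17.9% and 7.59% were higher against 16.5%. The median log2 fold change of the 79 genes was -0.10, beside 0.00 over all tested genes. Scaled by library size alone, 9 were higher and 15 lower, which moved the share of higher calls from 22.2% to 37.5% among the channel genes and from 47.9% to 63.7% among all genes, and the median of the 79 to -0.03. With Rik null replicate 1 and WT replicate 4 both left out, 4 were higher and 18 lower.

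Most changes were small. Only Kcne2 and Kcne4 passed the threshold with at least a 2-fold change, 2.53% of the channel genes beside 3.54% of all tested genes. In 8 genes, 10.1% of the 79, no Rik null library overlapped a WT library, beside 12.4% of all tested genes. All 8 were lower in Rik null brain (Kcna6, Kcnh7, Kcne1l, Kcne2, Kcnn1, Kcnj13, Kcnj16 and Kcnk13), where the background was 7.03% for lower and 5.38% for higher. The plot of fold changes by class shows most of them near the foot of their classes.

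**Figure D1:**
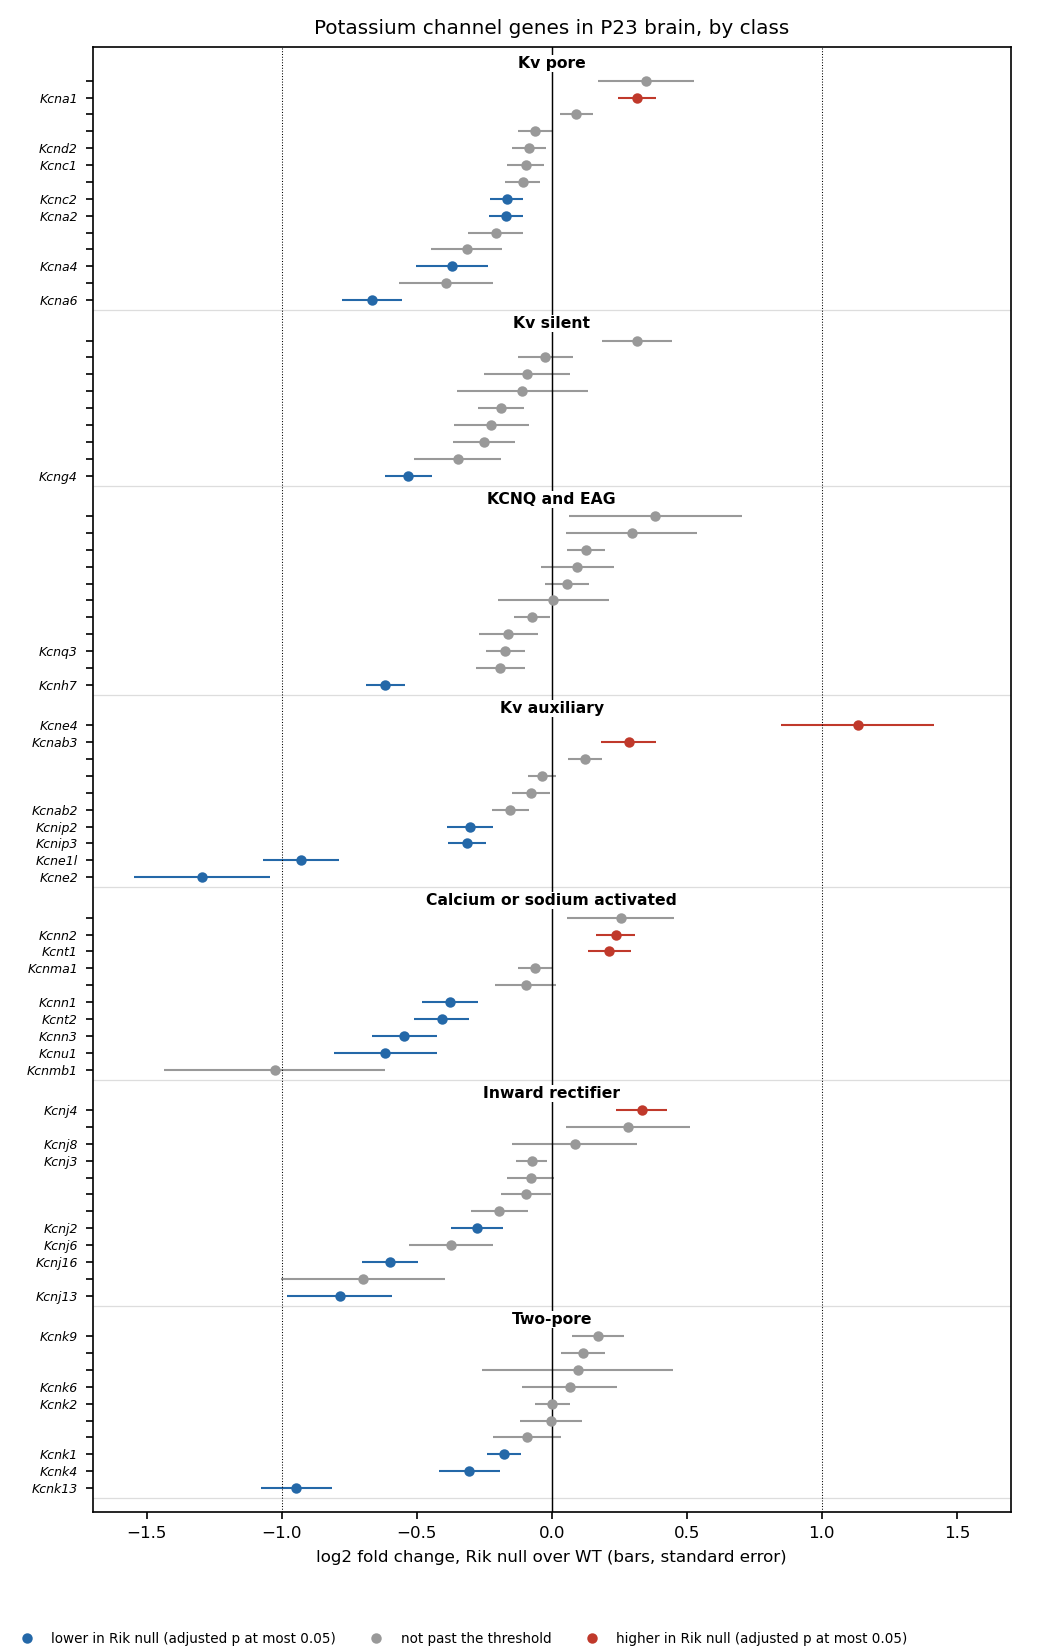
Log2 fold change (Rik null over WT, with its SE as a bar) of 76 of the 79 tested potassium channel genes, in 7 classes by symbol, with genes past the adjusted p of 0.05 in blue (20 lower) and red (6 higher), dotted lines at a 2-fold change, and names for the genes described in the text. Kcne2 and Kcne4 lie beyond the dotted lines in opposite directions, and Kcnmb1 at -1.02 lies beyond one without passing the test.

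The sequence before the start site is shown for 3 of these 8 genes, from classes with different roles. They are those of smallest p whose single RefSeq start is also the start of the GENCODE M21 gene. Each run is the 250 bases before the start in GRCm38.p6, from RefSeq, written 5′ to 3′ on the strand of the gene, for Kcnh7 chr2:63184288-63184537 (minus strand), for Kcnk13 chr12:99964249-99964498 (plus strand) and for Kcna6 chr6:126740675-126740924 (minus strand). Capitals mark matches, on either strand, to GGGCGG (a GC box), CCAAT and TGACGT (the core of a cyclic AMP response element). The motifs do not overlap in these windows.
Kcnh7: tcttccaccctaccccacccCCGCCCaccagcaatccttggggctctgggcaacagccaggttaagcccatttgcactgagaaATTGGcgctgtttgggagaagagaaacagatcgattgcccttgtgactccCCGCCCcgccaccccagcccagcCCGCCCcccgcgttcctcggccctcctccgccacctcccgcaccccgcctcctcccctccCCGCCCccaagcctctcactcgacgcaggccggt
Kcnk13: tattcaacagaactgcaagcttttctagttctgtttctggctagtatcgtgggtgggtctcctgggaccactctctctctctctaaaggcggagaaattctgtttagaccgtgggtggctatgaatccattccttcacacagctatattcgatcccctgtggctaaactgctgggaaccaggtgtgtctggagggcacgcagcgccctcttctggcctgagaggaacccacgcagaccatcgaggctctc
Kcna6: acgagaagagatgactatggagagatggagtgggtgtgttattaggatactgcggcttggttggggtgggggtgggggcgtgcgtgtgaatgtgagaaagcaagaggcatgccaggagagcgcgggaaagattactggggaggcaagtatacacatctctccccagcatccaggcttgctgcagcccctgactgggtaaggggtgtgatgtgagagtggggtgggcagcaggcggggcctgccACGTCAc
The Kcnh7 window held 4 GC boxes and 1 CCAAT match, the Kcna6 window 1 TGACGT match close to the start, and the Kcnk13 window none of the motifs. Of 32851 RefSeq windows of this length, 32.7% held GGGCGG, 33.8% CCAAT and 6.47% TGACGT. Of the 92 windows of the 67 channel genes that had any, 44.6%, 28.3% and 4.35% held them. The median content of G and C was 58.6% in the channel windows and 52.4% in all windows, and its part in these shares was not tested. No motif was found in all 3 windows shown.

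As a background for each class that follows, 17.9% of all tested genes were lower and 16.5% higher. Among the pore subunits of Kv channels (Kcna, Kcnb, Kcnc and Kcnd), 4 of 15 tested genes were lower (26.7%) and 1 was higher (6.67%), with a median log2 fold change of -0.17. The lower ones included Kcna6, which encodes Kv1.6, a subunit of low-threshold dendrotoxin-sensitive channels (chromosome 6, 126708329 to 126740674, minus strand). Kcna6 lay at 58.9 to 81.7 CPM in WT libraries (median 66.8) and at 25.5 to 50.6 CPM in Rik null libraries (median 45.5). The genotypes did not overlap, and Rik null replicate 1 was the lowest library. Its log2 fold change was -0.66 ± 0.11 (adjusted p = 9.62e-05), and -0.56 without that library. An antisense gene, Gm26673, covers 39.6% of the exonic length of Kcna6 but held 180 counts over all libraries against 12542. Whether the counting used strand is not given in the sources used here.

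Kcna1 lies next to Kcna6 on chromosome 6 (126640397 to 126646384, minus strand) and went the other way. It encodes Kv1.1, which sits with Kv1.2 beside the nodes of myelinated axons and at terminals of basket cells, and limits repetitive firing. WT libraries held 90.1 to 129 CPM (median 96.7) and Rik null libraries 110.2 to 136 CPM (median 126). The overlap came from 1 library, WT replicate 6 at 129 CPM, since the other WT libraries ended at 100.4 CPM. The log2 fold change was 0.32 ± 0.07 (adjusted p = 0.00170), and 0.38 without WT replicate 6. Its partner Kcna2 (Kv1.2) was at 279 to 382 CPM in WT (median 310.3) and 255 to 307 CPM in Rik null libraries (median 285), a log2 fold change of -0.17 ± 0.06 (adjusted p = 0.0420). Kcna2 ranges overlapped between genotypes. Markers of myelinating oligodendrocytes, the cells that wrap these axons, summed to 19359 to 23704 CPM in WT and 13115 to 16385 CPM in Rik null libraries, and their part in the Kv1 values was not tested.

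The other lower pore subunits were Kcna4 and Kcnc2. Kcna4, the subunit of a fast-inactivating current, was at 20.8 to 26.9 CPM in WT (median 24.4) and 11.1 to 24.6 CPM in Rik null libraries (median 19.9; log2 fold change -0.37 ± 0.13, adjusted p = 0.0366). Kcnc2, a Kv3 subunit of fast-spiking interneurons, was at 102 to 130.0 CPM in WT (median 116) and 91.1 to 113 CPM in Rik null libraries (median 104; log2 fold change -0.17 ± 0.06, adjusted p = 0.0399). Ranges overlapped in both. Kcnc1, a Kv3 subunit of fast-firing neurons, did not pass (-0.10 ± 0.07, adjusted p = 0.284), nor did the dendritic A-type subunit Kcnd2 (-0.08 ± 0.06, adjusted p = 0.332). The calls of 3 pore subunits depended on single libraries and on the settings of the test. Kcna2 was lost under 18 and Kcnc2 under 17 of the 26 alternatives, among them DESeq2 (adjusted p = 0.0525 and 0.0515), both other filters and sex as a covariate, and Kcna4 was lost under 10, among them scaling by library size alone (adjusted p = 0.0841). Kcna2 did not pass without any 1 of WT replicates 3, 6 and 7 and Rik null replicates 1, 2, 3, 5, 6 and 7 (adjusted p 0.0563 to 0.0955). Kcna4 did not pass without any 1 of WT replicates 1, 2, 5 and 7 and Rik null replicates 1, 2 and 4 (0.0566 to 0.0834). Kcnc2 did not pass without any 1 of WT replicates 2, 3, 6 and 7 and Rik null replicates 1, 2, 4, 5, 6 and 7 (0.0536 to 0.0936).

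Silent subunits (Kcnf, Kcng, Kcns and Kcnv) form no channel alone and modify Kv2 channels. Of 9 tested, 1 was lower and none higher, with a median of -0.19. This was Kcng4 (Kv6.4), at 38.3 to 49.2 CPM in WT (median 47.7) and 26.3 to 39.6 CPM in Rik null libraries (median 31.1). A single Rik null library reached into the WT range. The log2 fold change was -0.53 ± 0.09 (adjusted p = 9.60e-05).

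In the Kcnq and Kcnh families, which carry the M-current and ether-a-go-go type currents, 2 of 13 tested genes were lower, none was higher, and the median was 0.00. Kcnh7 (Kv11.3, on chromosome 2, 62693414 to 63184287, minus strand) encodes a neuronal channel of the ERG type, which opens late and holds back firing, and had the smallest p of the channel genes. Its WT libraries were at 101 to 129 CPM (median 119) and its Rik null libraries at 66.1 to 84.4 CPM (median 77.7). The genotypes did not overlap, and the log2 fold change was -0.62 ± 0.07 (adjusted p = 1.57e-06). Gca, on the opposite strand, overlaps 4.57% of its exonic length and was itself lower (-0.67 ± 0.12, adjusted p = 2.13e-04), at 2337 counts over all libraries against 21536 for Kcnh7. Kcnq3, whose product is a subunit of the M-channel at the axon initial segment and nodes, was at 149 to 214 CPM in WT and 139.7 to 170.2 CPM in Rik null libraries. Its log2 fold change was -0.17 ± 0.07 and did not pass (adjusted p = 0.0687).

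The auxiliary subunits of Kv channels (Kcnab, Kcnip and Kcne) held the largest fold changes, with 4 lower and 2 higher of 10 tested and a median of -0.11. All 3 tested Kcne genes, which encode small single-span subunits, passed the test. Kcne2 (chromosome 16, 92292389 to 92298129, plus strand), whose product joins Kcnq and other channels and is prominent in choroid plexus, was at 2.31 to 4.99 CPM in WT (median 3.50) and 0.596 to 1.80 CPM in Rik null libraries (median 1.61). There was no overlap, and the log2 fold change was -1.29 ± 0.25 (adjusted p = 4.61e-04), which is 2.45-fold lower. Kcne1l (chromosome X, 142304752 to 142306294, minus strand) was at 7.47 to 13.8 CPM in WT (median 9.80) and 4.44 to 6.69 CPM in Rik null libraries (median 5.44), again without overlap (log2 fold change -0.93 ± 0.14, adjusted p = 3.36e-05). Kcne4 (chromosome 1, 78816758 to 78820028, plus strand), which dampens Kv1 and Kcnq currents in cell systems, was higher. It was at 0.885 to 2.25 CPM in WT (median 1.06) and 1.59 to 5.78 CPM in Rik null libraries (median 2.58), and 6 of 7 Rik null libraries were above the highest WT library. Its log2 fold change was 1.13 ± 0.28 (adjusted p = 0.00377), 2.19-fold higher, and fell to 0.89 without Rik null replicate 1, the highest library. Kcne2 and Kcne4 were measured at a few CPM, and their fold changes had the largest SE of the called genes.

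Among the cytoplasmic auxiliary subunits, Kcnip3 and Kcnip2, calcium-binding partners of Kv4 channels, were lower. Kcnip3, also a transcriptional repressor known as DREAM, was at 91.3 to 126 CPM in WT (median 113) and 78.5 to 97.1 CPM in Rik null libraries (median 88.5; log2 fold change -0.31 ± 0.07, adjusted p = 0.00185). Kcnip2 was at 59.4 to 80.0 CPM in WT (median 73.0) and 45.9 to 70.1 CPM in Rik null libraries (median 57.9; -0.30 ± 0.09, adjusted p = 0.00943). Kcnab3, a beta subunit of Kv1 channels, was higher, at 28.6 to 45.3 CPM in WT (median 35.8) and 38.0 to 50.5 CPM in Rik null libraries (median 40.6; 0.28 ± 0.10, adjusted p = 0.0346). Its call was lost without any 1 of WT replicates 4, 5 and 6 and Rik null replicates 1, 2 and 5 (adjusted p 0.0579 to 0.0811). Kcnab2, the main beta subunit in brain and the channel gene of highest level per length, did not pass (-0.15 ± 0.07, adjusted p = 0.0827).

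The class of channels opened by calcium or sodium was grouped by symbol (Kcnma, Kcnmb, Kcnn, Kcnt and Kcnu). It therefore also held auxiliary subunits (Kcnmb) and Kcnu1, placed here by symbol and not by how it opens. The class included 4 lower and 2 higher genes of 10 tested, with a median of -0.24. All 3 tested SK genes (Kcnn), whose products carry the afterhyperpolarization that follows action potentials, passed the test, in different directions. Kcnn1 (SK1; chromosome 8, 70842049 to 70863258, minus strand) was at 14.4 to 18.9 CPM in WT (median 15.3) and 9.14 to 14.2 CPM in Rik null libraries (median 12.1), without overlap (log2 fold change -0.38 ± 0.10, adjusted p = 0.00683). Kcnn3 (SK3) was at 26.1 to 36.4 CPM in WT (median 31.6) and 13.4 to 27.5 CPM in Rik null libraries (median 22.0; -0.55 ± 0.12, adjusted p = 0.00130), with 6 of 7 Rik null libraries below the lowest WT library. Kcnn2 (SK2) was higher, at 24.3 to 31.3 CPM in WT (median 29.1) and 29.6 to 36.8 CPM in Rik null libraries (median 34.1; 0.24 ± 0.07, adjusted p = 0.0157), with 6 of 7 Rik null libraries above the highest WT library. The sodium-activated channels also differed in direction. Kcnt2 (Slick) was at 22.1 to 32.7 CPM in WT (median 27.2) and 16.3 to 24.5 CPM in Rik null libraries (median 21.9; -0.41 ± 0.10, adjusted p = 0.00347), whereas Kcnt1 (Slack) was at 70.6 to 96.4 CPM in WT (median 77.7) and 81.1 to 109 CPM in Rik null libraries (median 90.6; 0.21 ± 0.08, adjusted p = 0.0432). Kcnt1 did not pass without any 1 of WT replicates 1, 2, 4 and 5 and Rik null replicates 2, 3 and 7 (adjusted p 0.0748 to 0.103). Kcnu1, a channel best known from sperm, was at 2.12 to 4.45 CPM in WT (median 3.08) and 1.55 to 2.30 CPM in Rik null libraries (median 2.13; -0.62 ± 0.19, adjusted p = 0.0155). Kcnma1, the large-conductance BK channel, was at 252 to 349 CPM in WT and 264 to 317 CPM in Rik null libraries (-0.06 ± 0.07, adjusted p = 0.508). Its smooth muscle subunit Kcnmb1, under 2 CPM in every library, had a log2 fold change of -1.02 ± 0.41 that did not pass (adjusted p = 0.0571).

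Inward rectifiers (Kcnj) included 3 lower and 1 higher gene of 12 tested, with a median of -0.14. Kcnj16 (Kir5.1; chromosome 11, 110968033 to 111027968, plus strand), a subunit of the pH-sensitive channels of astrocytes, was at 33.8 to 42.7 CPM in WT (median 38.5) and 20.2 to 32.4 CPM in Rik null libraries (median 25.9). The genotypes did not overlap (log2 fold change -0.60 ± 0.10, adjusted p = 1.39e-04). The 10 astrocyte markers, of which 6 were lower and 1 (Gjb6) higher, summed to 5369 to 6565 CPM in WT and 4135 to 4925 CPM in Rik null libraries, and their part in the Kcnj16 value was not tested. Kcnj13 (Kir7.1; chromosome 1, 87386363 to 87394729, minus strand), a channel of the apical membrane of choroid plexus, was at 2.19 to 3.41 CPM in WT (median 2.77) and 1.06 to 1.91 CPM in Rik null libraries (median 1.68; -0.79 ± 0.20, adjusted p = 0.00370). There was no overlap, but the value is uncertain, because exons of Gigyf2 on the opposite strand cover 49.1% of the exonic length of Kcnj13 and Gigyf2 held 15872 counts against 496. Gigyf2 was itself lower by a smaller amount (-0.26 ± 0.09, adjusted p = 0.0353). Of 9 choroid plexus markers, 4 were lower (44.4%, beside 17.9% of all tested genes) and none was higher (beside 16.5%), with a median of -0.24. Their sum, mostly Ttr, overlapped between genotypes, at 564 to 879 CPM in WT and 603 to 774 CPM in Rik null libraries. Ttr, the most abundant, did not pass (-0.10 ± 0.09, adjusted p = 0.409), while Kl was lower (-0.94 ± 0.14, adjusted p = 1.96e-05). The part of these markers in the Kcnj13 and Kcne2 values was not tested.

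Of the neuronal inward rectifiers, Kcnj4 (Kir2.3; chromosome 15, 79483714 to 79505241, minus strand), a forebrain channel that holds neurons near rest, was higher, at 68.1 to 94.9 CPM in WT (median 84.1) and 85.3 to 130.5 CPM in Rik null libraries (median 102; log2 fold change 0.33 ± 0.09, adjusted p = 0.00946). Its close relative Kcnj2 (Kir2.1) was lower, at 19.6 to 28.4 CPM in WT (median 23.2) and 14.5 to 21.9 CPM in Rik null libraries (median 20.1; -0.28 ± 0.10, adjusted p = 0.0308). Ranges overlapped in both. Kcnj2 did not pass without any 1 of WT replicates 1, 5 and 7 and Rik null replicates 2 and 4 (adjusted p 0.0537 to 0.0783). Kcnj3, a subunit of G protein-gated channels, did not pass (-0.07 ± 0.06, adjusted p = 0.322), nor did Kcnj8, the ATP-sensitive channel subunit of pericytes (0.08 ± 0.23, adjusted p = 0.807), measured at 1.65 to 4.77 CPM. Abcc9, from the list of channel partners described below, was lower (-0.52 ± 0.13, adjusted p = 0.00484). Of 8 tested markers of pericytes and smooth muscle, 1 was lower (12.5%, beside 17.9% of all tested genes) and none was higher. Their part in the Kcnj8 value was not tested.

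Among the tandem-pore channels (Kcnk), 3 of 10 tested genes were lower and none higher, with a median of 0.00. Kcnk13 (THIK-1; chromosome 12, 99964499 to 100062682, plus strand), the channel that sets the resting potential of microglia, was at 9.07 to 11.8 CPM in WT (median 10.1) and 4.05 to 7.24 CPM in Rik null libraries (median 5.38). The genotypes did not overlap (log2 fold change -0.95 ± 0.13, adjusted p = 1.36e-05). Microglial markers summed to 320.3 to 439.8 CPM in WT and 235 to 301 CPM in Rik null libraries. P2ry12 was lower among them (-1.40 ± 0.14, adjusted p = 1.51e-07) and C1qa was not (0.03 ± 0.17, adjusted p = 0.912), and their part in the Kcnk13 value was not tested. Kcnk1 (TWIK-1), abundant in astrocytes and some neurons, was at 96.4 to 128 CPM in WT (median 114) and 92.2 to 108 CPM in Rik null libraries (median 98.0; -0.18 ± 0.06, adjusted p = 0.0343). Kcnk4 (TRAAK), a mechanosensitive channel of nodes of Ranvier, was at 8.24 to 11.1 CPM in WT (median 8.77) and 6.40 to 8.59 CPM in Rik null libraries (median 7.81; -0.30 ± 0.11, adjusted p = 0.0419), and shares 13.1% of its exonic length with Catsperz on the same strand. Kcnk1 did not pass without any 1 of WT replicates 1, 2, 4 and 5 and Rik null replicates 1, 2, 6 and 7 (adjusted p 0.0554 to 0.0846), nor Kcnk4 without any 1 of WT replicates 2, 4 and 7 and Rik null replicates 1, 2, 5 and 6 (0.0545 to 0.0977). Kcnk4 was also lost in DESeq2 (adjusted p = 0.0503), with library size alone (0.110), without the filter on low counts (0.0998) and with the replicate number as a block (0.0628), and Kcnk1 with library size alone (0.168) and without the filter (0.0576). Kcnk2 (TREK-1) was at 48.8 to 64.3 CPM in WT and 53.5 to 60.1 CPM in Rik null libraries, with a log2 fold change of 0.00 ± 0.06 (adjusted p = 0.981). Kcnk6 was at 2.65 to 5.95 and 3.24 to 4.59 CPM (0.07 ± 0.18, adjusted p = 0.803).

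**Figure D2:**
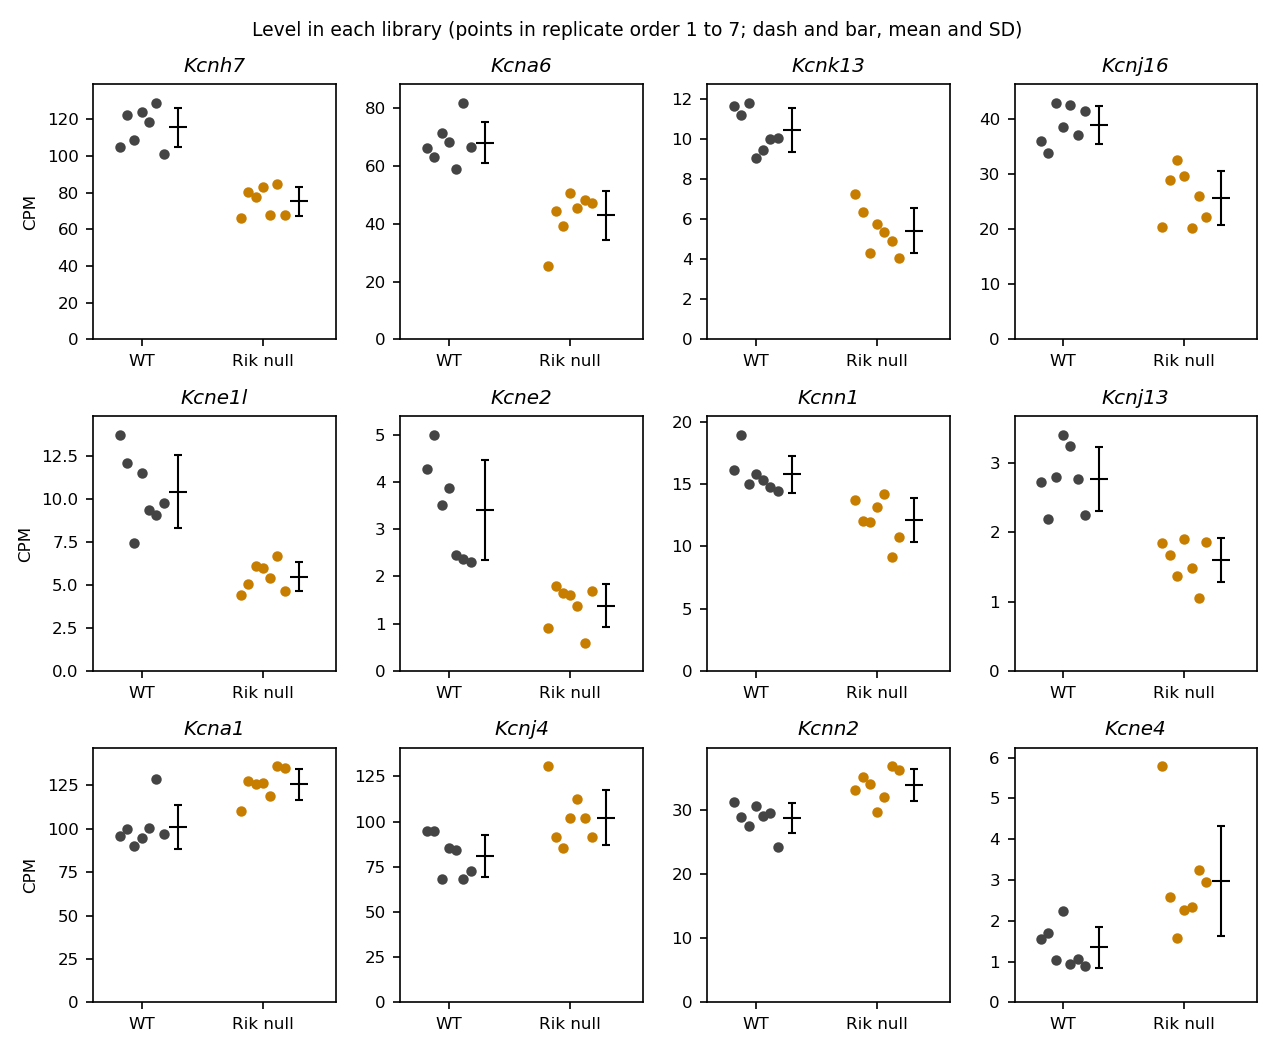
CPM of 12 genes in each of the 7 WT and 7 Rik null libraries (points in replicate order), with mean and SD beside them, each axis starting at 0. The upper 8 panels are the genes without overlap between genotypes, such as Kcnh7 at 101 to 129 CPM in WT and 66.1 to 84.4 CPM in Rik null libraries, and the lower row holds 4 of the 6 genes that were higher, in which the ranges overlap.

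Levels of different genes were compared per length, in the deposited FPKM. The 10 channel genes of highest mean FPKM included Kcnab2 (49.8), Kcnk1 (46.7), Kcnj4 (42.3), Kcnd2 (29.7), Kcnip3 (27.5), Kcna2 (25.0), Kcna1 (23.5), Kcnj3 (23.1) and Kcnc1 (21.7), and the 10 together made up 41.6% of the summed FPKM of the 92 genes. Of these 10, 3 were lower and 2 higher, and none changed by more than 0.33 on the log2 scale. Of 27 tested genes with a mean of at least 10 FPKM, 6 were lower and 3 higher, and only Kcng4 reached a change of 0.5. Of 52 below 10 FPKM, 15 were lower and 3 higher, and 10 of these calls were changes of at least 0.5. The median absolute log2 fold change was 0.15 in the first group and 0.28 in the second. It was 0.19 over the tested channel genes and 0.22 over all tested genes, which were not split by level. In all, 9 of the 27 and 18 of the 52 genes were called, beside 34.4% of all tested genes.

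**Figure D3:**
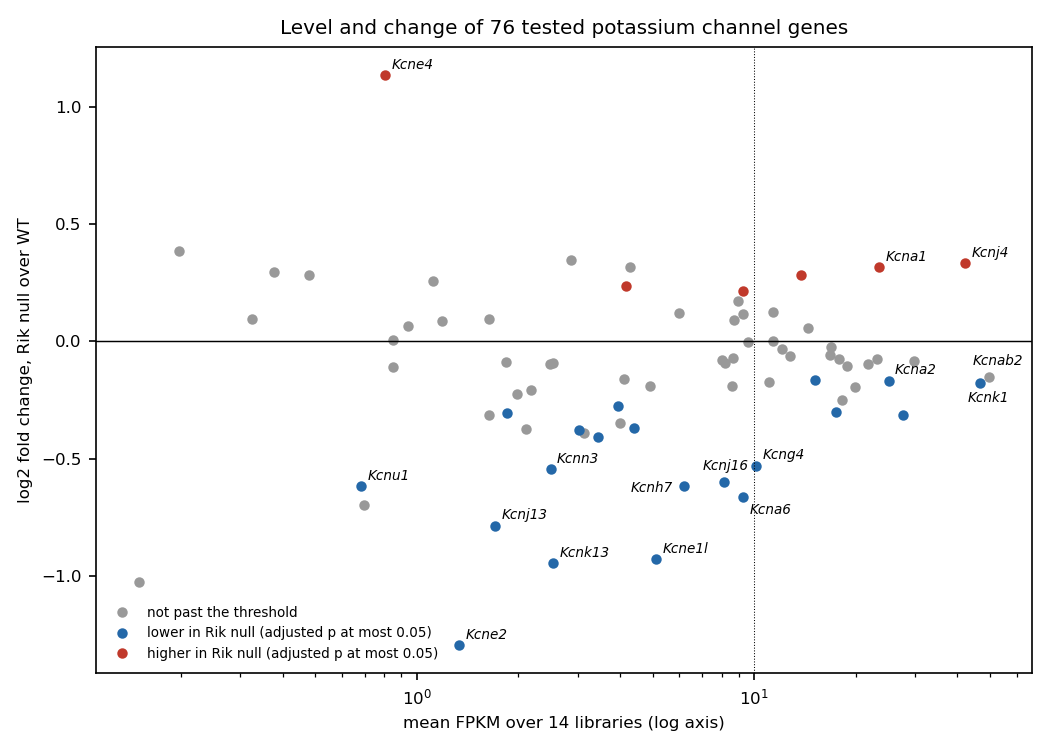
Log2 fold change (Rik null over WT) of 76 of the 79 tested genes against mean FPKM over the 14 libraries on a log axis, with a dotted line at 10 FPKM and calls in blue and red. Abundant genes lie close to 0, with Kcna1 (0.32) and Kcnj4 (0.33) highest and Kcng4 (-0.53) lowest to the right of the line, and the larger changes, such as Kcne2 (-1.29) and Kcne4 (1.13), lie to its left.

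The called genes were chosen on these same libraries, so that a shared direction follows in part from the choice, and the following counts are a description only. Of the 21 lower genes, 20 were below the WT mean in all 7 Rik null libraries, the exception being Kcna4 in Rik null replicate 5. Of the 6 higher genes, 5 were above it in all 7, the exception being Kcnt1 in Rik null replicate 6. Each Rik null library was below the lowest WT library in 11 to 19 of the 21 lower genes, with the most in replicate 1 and the fewest in replicate 3. The median log2 distance of the 79 genes from their WT means was -0.25 in Rik null replicate 1 and between -0.16 and -0.08 in the other Rik null libraries, beside -0.09 to 0.07 in WT libraries, so that the lowest WT library lay within the Rik null range.

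**Figure D4:**
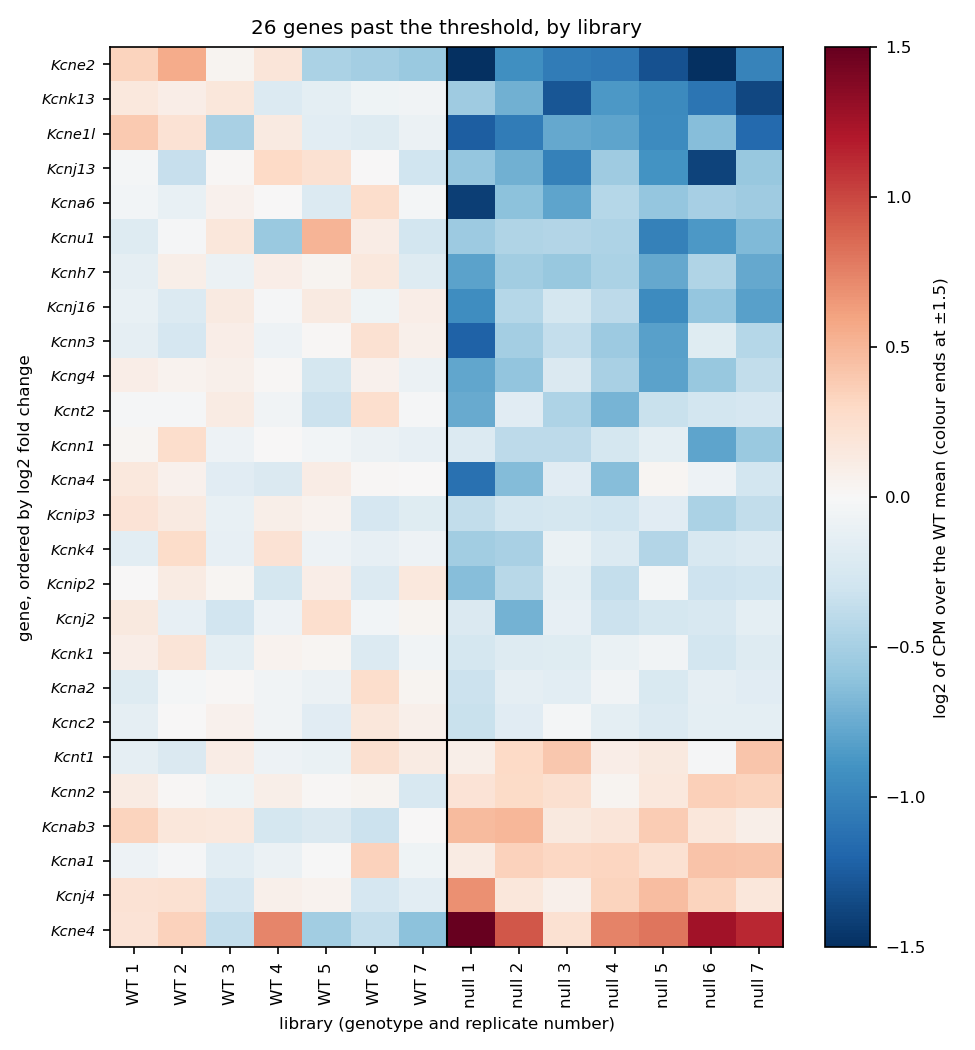
Log2 of CPM over the WT mean in each library for 26 of the 27 genes past the threshold, ordered by fold change, with WT libraries on the left, Rik null on the right, and colour ending at ±1.5. Rik null replicate 1 is darkest in Kcna6, Kcna4, Kcnn3 and, upwards, Kcne4, and WT replicate 6 stands out in Kcna1.

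Sexes were mixed in both genotypes. No channel gene passed the threshold for an interaction of genotype and sex in edgeR's quasi-likelihood test (0 of 79, lowest adjusted p 0.832, beside 0% of all genes), and 5 were at an unadjusted p under 0.05 (Kcnip3, Kcnc1, Kcnk6, Kcnj6 and Kcnk9), beside 5.83% of all genes. In females alone 2 channel genes were higher and 9 lower, and in males alone 2 and 12. Calls over all genes fell as well, from 5810 with all libraries to 2874 in females alone and 2737 in males alone. Higher genes were 44.6% and 45.3% of these calls, beside 18.2% and 14.3% among the channel genes. Kcna6, Kcnh7, Kcne1l, Kcne2, Kcnj16 and Kcnk13 were lower in each sex alone, for example Kcnh7 at -0.65 in females and -0.58 in males (adjusted p = 0.00115 and 0.00230).

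Proteins that bind or place channels, and transporters that restore the potassium gradient, were taken from lists chosen by function. Of 20 tested partners, 9 were lower (45.0%, beside 17.9% of all tested genes) and 1 higher (5.00%, beside 16.5%), with a median of -0.15. The one higher was Lrrc26, an auxiliary subunit of the BK channel known from secretory epithelia, at 1.04 to 1.74 CPM in WT and 2.94 to 6.34 CPM in Rik null libraries without overlap (log2 fold change 1.85 ± 0.20, adjusted p = 6.41e-07), whereas its relative Lrrc55 was lower (-0.52 ± 0.11, adjusted p = 9.27e-04). Among the proteins that cluster Kv1 channels beside nodes, Cntn2 (-0.37 ± 0.09, adjusted p = 0.00313) and the scaffold Dlg2 (-0.36 ± 0.07, adjusted p = 5.32e-04) were lower, and Cntnap2 did not pass (0.09 ± 0.05, adjusted p = 0.207). Of 15 tested sodium pump subunits and potassium chloride cotransporters, 7 were lower (46.7%, beside the same 17.9%) and 3 higher, with a median of -0.18. The cotransporter Slc12a4 was lower (-0.59 ± 0.08, adjusted p = 8.84e-06) and the pump subunit Atp1b3 higher (0.45 ± 0.07, adjusted p = 3.28e-05). Of 6 tested genes of the related hyperpolarization-activated and cyclic nucleotide-gated channels, 2 were lower (33.3%, beside 17.9%) and none was higher (beside 16.5%). The lower ones were Hcn2 (-0.52 ± 0.06, adjusted p = 1.64e-06) and Hcn3 (-0.70 ± 0.15, adjusted p = 0.00106).

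The 13 genes without enough counts for the test were Kcna7, Kcna10, Kcnv2, Kcne1, Kcne3, Kcnmb3, Kcnn4, Kcnj1, Kcnj15, Kcnk7, Kcnk15, Kcnk16 and Kcnk18. None exceeded 24 counts in a library, and Kcnk16 had 0 counts in all libraries. With no filter beyond 1 count, edgeR's quasi-likelihood test called 1 of them. This was Kcnmb3, an auxiliary subunit of BK channels, which had 0 counts in 4 of 7 WT libraries and at most 3 counts in the others, and 1 to 14 counts in the Rik null libraries, 5 counts in WT and 38 in Rik null libraries in all. The ranges overlapped, and the log2 fold change was 2.61 (adjusted p = 0.0281), or 2.81 in DESeq2 (adjusted p = 0.0187). Kcnj15, at 23 counts in WT and 5 in Rik null libraries, did not pass in either (adjusted p = 0.117 and 0.0866), and for the remaining 10 genes with counts no difference was detectable at this depth.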

How the data were processed

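Gene counts and FPKM of 14 P23 brain libraries (7 per genotype) were deposited by the authors in 1 table. The counts are raw, per gene, with no normalization by the authors, and the deposited FPKM are counts scaled by the authors to library size and gene length. The submitters' processing notes name GRCm38. For the aligner, counter, annotation and strand setting: not given in the sources used here. The table also holds the authors' own group means, fold changes and p-values, which were not used. Positions of genes are from GENCODE M21 (GRCm38) by gene identifier.

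Channel genes, gene lists and tests were chosen with earlier results of these data known. Counts were fitted in edgeR 4.0.16 (R 4.3.3; glmQLFit and glmQLFTest at default settings, TMM scaling, filterByExpr) on genotype, over the whole table. Genes named were those called with at least a 2-fold change, up to 5 of smallest p called per class, the 10 of highest FPKM, 15 genes of known cellular place whatever their result, and up to 4 per list of other genes. Called genes outside this rule (Kcnab3 and Kcnt1), Kcnmb1, Kcnmb3, Kcnj15, Cntnap2, Abcc9 and the genes of the interaction, were named after their values were seen. Some channel and pump genes, most of them counted in the totals, are not reported here. Marker levels are sums of CPM. The same steps were run on simulated data as a check of the code. Far fewer genes changed there than in these libraries, so that run cannot judge the scaling or the calls made here. Alternatives were DESeq2 1.42.0, other scalings and filters, sex as a covariate, a replicate block, single libraries left out, and each sex alone. P-values set the difference between genotypes against the spread between libraries, each labelled as a separate animal. Litter was not part of any model, so that animals of 1 litter would be counted as independent.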

Additional observations from a re-analysis of the deposited data

Results flagged for a closer look

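In 4 of 72 groups of 7 libraries screened for the named channel genes, 1 library lay far from the others by Dixon's criterion, which chance meets in about 1 of 20 groups. Kcna1 was at 128.7 CPM in WT replicate 6, while the other WT libraries were at 90.1 to 100.4 CPM. Kcnn1 was at 18.9 CPM in WT replicate 2, above 14.4 to 16.1 CPM in the others, and without it its log2 fold change went from -0.38 to -0.33 (adjusted p = 0.0185). Kcne4 was at 5.78 CPM in Rik null replicate 1, above 1.59 to 3.24 CPM in the others. Kcnj2 was at 14.5 CPM in Rik null replicate 2, below 19.1 to 21.9 CPM in the others, and without it its log2 fold change went from -0.28 to -0.21 and did not pass (adjusted p = 0.0751).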

How the results depend on the processing

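The counts of channel genes, 6 higher and 21 lower, moved by more than 1.5 times only with each sex alone: 2 higher and 9 lower in females, 2 higher and 12 lower in males. Over all genes 2874 were called in females alone and 2737 in males alone, beside 5810 in the main fit. With each library left out in turn, 4 to 7 were higher, 15 to 23 lower, 2 to 3 changed at least 2-fold, and 0 had an interaction with sex. DESeq2 called 7 higher and 18 lower, and RLE size factors 6 and 20. Scaling by library size alone called 9 higher and 15 lower. With Rik null replicate 1 and WT replicate 4 both left out, 4 were higher and 18 lower. These 2 settings put the count of higher genes at the limit of 1.5 times, and not beyond it. No called gene changed sign under any of the 26 alternatives. Of the 27 called genes, 6 passed under all of them (Kcna6, Kcne1l, Kcne2, Kcnh7, Kcnj16 and Kcnk13), 12 were lost only in a sex alone, Kcnn2 also without the filter on low counts, and 8 were lost without at least 1 library, 7 of these also under other settings (Kcna2, Kcnc2, Kcnk4, Kcna4, Kcnj2, Kcnk1 and Kcnt1); the cause was not tested. Without the filter 24 genes were called, 21 of them shared, and Kcnmb3, not tested with it, was higher. Replicate numbers did not pair the samples (correlations of deviations between same-numbered libraries -0.06 to 0.14, above 0.1 in 1 of 7 pairs, and no library correlating best with its own number). With the replicate block 6 genes were higher and 24 lower, and 26 of the 27 calls were shared, the one lost being Kcnk4 (adjusted p = 0.0628). Genes of a few CPM, such as Kcne2, Kcne4, Kcnj13 and Kcnu1, are limited by depth.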
